A study of Capra hircus with 9 samples.

Results

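The comparison was of uterine samples of Liaoning Cashmere goats, a fibre breed, at day 19 with samples at day 16. It covered 6 of the 9 libraries of the series, 3 per day, chosen by the time point in their titles, and the 20222 of 25671 table rows that were of type mRNA. No treatment, genotype or pregnancy status distinguishes the groups in the labels, which give only day 16 and day 19 peri-implantation; the event that starts the count of days is not in them, while the series design text words the days as an age. The tissue is uterus in the sample labels, endometrial epithelium in the series title and testis in the treatment protocol. Whether the 3 samples of each day were taken from different goats is not stated, and the spread that the p-values measure may therefore be technical. In such bulk samples, fewer cells of a type and less RNA per cell cannot be told apart.

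In ruminants the conceptus elongates in the uterine lumen before it attaches to the epithelium. Its trophoblast secretes interferon tau, which induces interferon-stimulated genes in the uterus and acts on the oestrogen and oxytocin receptors that control prostaglandin release. The uterine epithelium and glands feed the conceptus through secreted proteins, sugars and amino acids. Attachment involves loss of mucins, engagement of integrins and remodelling of matrix and vessels.

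Each day 16 library held 8712751 to 10330038 counts and each day 19 library 10611186 to 11074693. Day 19 replicate 1 stood apart. Over the mRNA genes tested, its Spearman correlation with day 19 replicates 2 and 3 was 0.889 and 0.892, against 0.945 to 0.963 with the day 16 libraries, while replicates 2 and 3 correlated at 0.983; genes are not independent replicates. Cytosolic ribosomal protein genes took 4.39% to 5.06% of the counts at day 16, 2.88% in day 19 replicate 1, and 7.70% and 6.65% in replicates 2 and 3. A list of 39 very long transcripts, such as those of ankyrins and histone methyltransferases, summed to 7337 to 8367 CPM (read counts scaled to library size, TMM-normalized) at day 16, 8485 CPM in replicate 1, and 2873 and 3108 CPM in replicates 2 and 3. Markers of the uterine wall were abundant in all 6 libraries: the smooth muscle list summed to 34276 to 69118 CPM, the stromal fibroblast list to 22208 to 35036 CPM and the epithelium list to 1847 to 3380 CPM. Of 29 testis germ cell genes in the table, 9 had 0 counts in the 6 libraries, 6 were tested, and the list summed to 66.0 to 138 CPM. Most of that sum came from ODF2, at 29.5 to 78.3 CPM, and AKAP4, at 21.6 to 51.7 CPM.

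For each gene it was asked whether all 3 day 19 libraries lay on one side of all 3 day 16 libraries. Of the 14530 mRNA genes tested, 1778 (12.2%) had all day 19 libraries above all day 16 libraries and 1789 (12.3%) had all of them below. In a further 6096 genes (42.0%) replicates 2 and 3 lay beyond the day 16 range in one direction and replicate 1 did not go with them. In 3166 of these replicate 1 lay beyond the day 16 range on the opposite side. The library that did not go with the other two was replicate 2 for 626 genes and replicate 3 for 686.

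**Figure D1:**
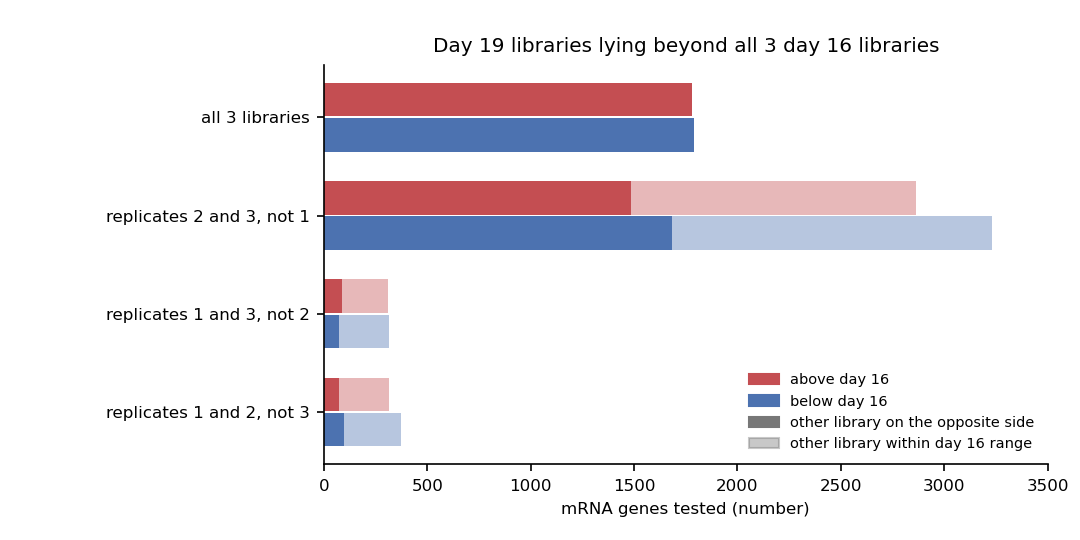
Number of tested mRNA genes (x axis) for which all 3 day 19 libraries, or a pair of them, lay above (red) or below (blue) all 3 day 16 libraries; dark parts of the lower bars are genes whose remaining library lay on the opposite side of day 16, pale parts those where it lay within the day 16 range. Replicate 1 was the library that did not go with the others for 6096 genes, replicates 2 and 3 for 626 and 686.

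A model of all 9 libraries called 79 mRNA genes higher at day 19 (0.544% of those tested) and 105 lower (0.723%), at an edgeR quasi-likelihood Benjamini-Hochberg adjusted p under 0.05. The groups of all 184 called genes did not overlap (24.5% of all mRNA genes tested had no overlap). Replicate 1 showed the smallest change of the 3 day 19 libraries in 57 of the 79 higher genes and in 67 of the 105 lower genes. The median log2 fold change was 1.29 among the higher genes and -1.64 among the lower ones, and 0.007 over all mRNA genes tested. The adjusted p-values lay close to the threshold, between 0.0154 and 0.0499, with 131 of the 184 at 0.04 or more. A fit to the 6 libraries alone called 0 (2542 at an unadjusted p under 0.05), DESeq2 called 905 higher (6.23%) and 750 lower (5.16%), and limma voom with sample quality weights called 3213 higher (22.1%) and 3573 lower (24.6%). DESeq2 gave no adjusted p-value for some genes, KMT2A, CREBBP and NOTCH3 among them. These genes count as not called by DESeq2, here and for the lists that follow. Voom gave day 19 replicate 1 a weight of 0.091, against 0.906 to 2.7 for the other libraries. Its day 19 values, here and for the lists that follow, thus rest mostly on replicates 2 and 3. Without day 19 replicate 1 edgeR called 3221 higher (21.8%) and 3607 lower (24.4%), among them all 184. Leaving out any other single library left 0 to 14 called genes, with the change of all 184 in the same direction (day 6 replicates 1, 2 and 3: 14, 4 and 0; day 16: 0, 5 and 0; day 19 replicates 2 and 3: 5 and 3). As the groups of the 184 did not overlap, leaving out a library could hardly turn their direction.

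**Figure D2:**
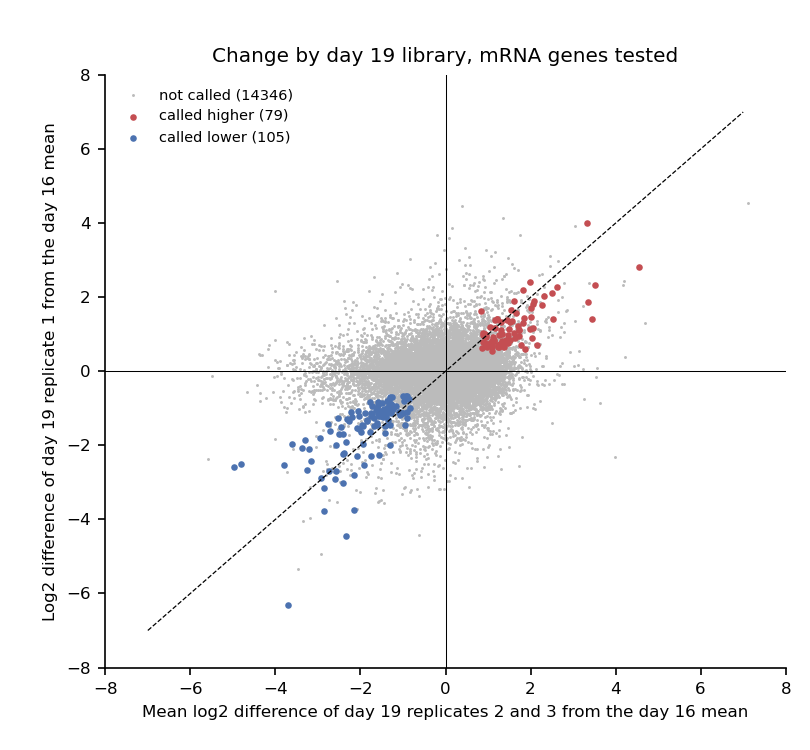
Each point is 1 tested mRNA gene; the x axis is the mean log2 difference of day 19 replicates 2 and 3 from the day 16 mean and the y axis that of replicate 1, both on log2 CPM with a prior count of 2, and the dashed line marks equal change. The 79 genes called higher (red) and the 105 called lower (blue) lie in the quadrants where all 3 libraries moved the same way, while the uncalled genes spread along the x axis and into the other quadrants.

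Among the genes that rose at day 19 were several secreted regulators of proteases and growth factors. Values of a day are given in the order of replicates 1, 2 and 3. CST6, a secreted inhibitor of cathepsins, stood at 21.5, 34.97 and 7.302 CPM at day 16 and 90.3, 229 and 182 CPM at day 19. Replicate 1 was the lowest of the day 19 libraries but 2.58 times the highest day 16 library. CST6 rose 7.88-fold (log2 fold change 2.98, SE 0.58; edgeR adjusted p = 0.0491). INHBA, whose protein forms the activin A dimer, stood at 65.7, 64.7 and 32.4 CPM at day 16 and 277, 251 and 168 CPM at day 19. Here replicate 1 was the highest, and the increase was 4.27-fold (log2 2.09, SE 0.35; edgeR adjusted p = 0.0408). GDF10, a secreted ligand related to the bone morphogenetic proteins, was scarcer, at 3.16, 2.73 and 2.43 CPM at day 16 and 11.9, 9.19 and 23.3 CPM at day 19, and rose 5.32-fold. WNT11, a Wnt ligand, stood at 3.37, 4.78 and 5.05 CPM at day 16 and 9.81, 19.4 and 16.1 CPM at day 19 and rose 3.42-fold. TIMP1, an inhibitor of metalloproteases, rose 2.28-fold with 113, 98.3 and 82.9 CPM at day 16 and 163, 247 and 259.9 CPM at day 19. Insulin-like growth factor genes moved in different directions: IGFBP6, which binds IGF2 preferentially, rose 2.16-fold, and IGF2 itself fell by 1.10 on the log2 scale (SE 0.21). IGF2 stood at 75.5, 58.8 and 64.3 CPM at day 16 and 34.1, 31.4 and 27.3 CPM at day 19, so its 3 day 19 libraries lay close together and under every day 16 library. The edgeR adjusted p-values of GDF10, WNT11, TIMP1, IGFBP6 and IGF2 lay between 0.0452 and 0.0474.

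Other genes that rose had roles in signalling, metabolism, transcription and translation. GNG11, a gamma subunit of heterotrimeric G proteins, stood at 206, 193 and 174 CPM at day 16 and 671, 744 and 840.03 CPM at day 19. The lowest day 19 library was 3.26 times the highest day 16 library, and GNG11 rose 3.94-fold (log2 1.98, SE 0.20; edgeR adjusted p = 0.0154). ENO2, an enolase best known from neurons, stood at 138, 157 and 112 CPM at day 16 and 619, 464 and 489.8 CPM at day 19 and rose 3.86-fold (SE of the log2 value 0.22; edgeR adjusted p = 0.0215). PNMT, the enzyme that makes adrenaline from noradrenaline, stood at 22.2, 20.3 and 10.6 CPM at day 16 and 62.5, 165 and 186 CPM at day 19, with replicate 1 between day 16 and the other day 19 libraries, and rose 7.796-fold. UCP2, an uncoupling protein of the inner mitochondrial membrane, rose 3.62-fold from 56.7, 34.3 and 24.2 CPM to 119, 119.5 and 178 CPM. HMGCS1, an early enzyme of cholesterol synthesis, rose 1.87-fold with little spread, at 60.03, 53.5 and 51.8 CPM at day 16 and 108, 103 and 99.4 CPM at day 19. Of the exchange factor NGEF, the small GTPase RASL10B, the nucleosome-binding protein HMGN5 and the RNA polymerase subunit POLR2L, HMGN5 rose most, 5.08-fold, and RASL10B least, 3.33-fold. POLR2L stood at 8.53, 9.23 and 9.02 CPM at day 16 and 14.6, 40.3 and 39.9 CPM at day 19, so replicate 1 showed a smaller rise than the other libraries. BZW2, a regulator of translation start, rose 3.08-fold and was even across day 19 at 123, 125 and 132 CPM. HOXA11, a homeobox gene of the uterine stroma, stood at 238, 195 and 152 CPM at day 16 and 422, 437 and 666 CPM at day 19 and rose 2.61-fold. COL18A1, a basement membrane collagen, rose 2.397-fold, and DDIT3, a transcription factor of the endoplasmic reticulum stress response, rose 2.38-fold. The serpin row SERPINB12, which the table describes as the clade member 13, had the widest gap of the higher genes with a mean of at least 10 CPM, with its lowest day 19 library 4.47 times its highest day 16 library, at 4.84, 4.44 and 4.15 CPM at day 16 and 22.2, 21.7 and 24.3 CPM at day 19, but did not pass (edgeR adjusted p = 0.0561; 0.00383 without day 19 replicate 1).

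**Figure D3:**
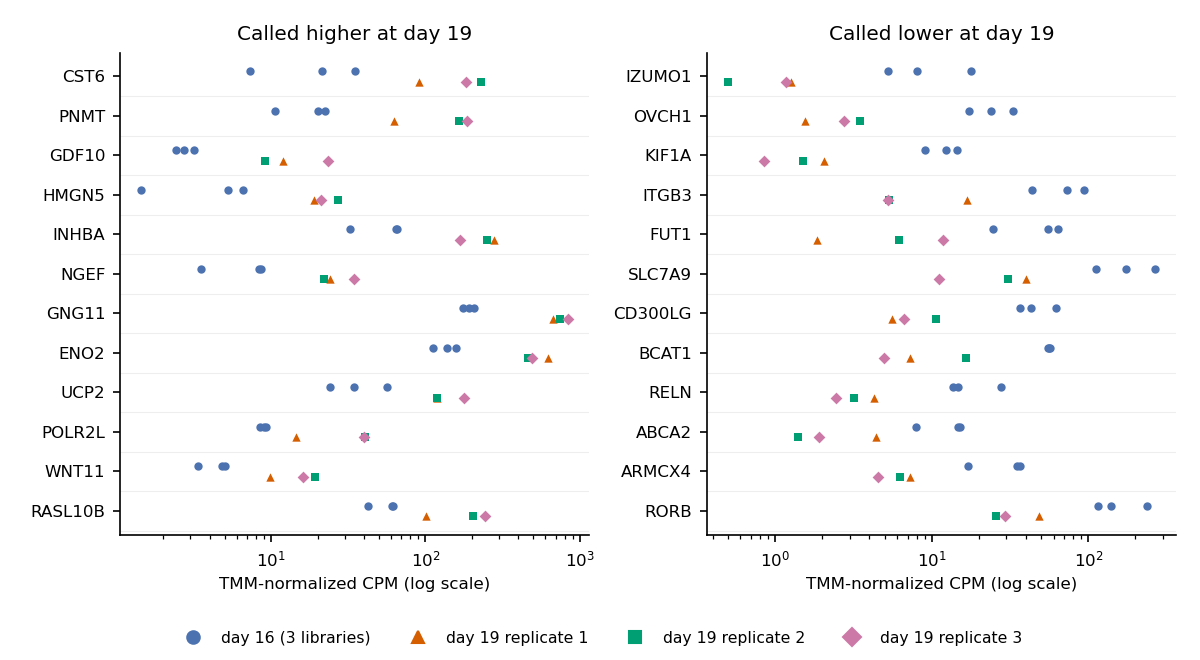
TMM-normalized CPM on a log axis for the 12 genes with the largest changes called higher (left) and called lower (right) at day 19, with 3 day 16 libraries as circles and day 19 replicates 1, 2 and 3 as triangles, squares and diamonds. In every gene shown the day 19 points lie on one side of all day 16 points; replicate 1 is nearest to day 16 for CST6, ITGB3 and SLC7A9, among others, and farthest from it for INHBA, ENO2 and FUT1.

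Among the 105 genes that fell were ITGB3, OCLN, SLC7A9 and SLC1A1, and all decreases are given on the log2 scale. ITGB3, the beta 3 integrin subunit, stood at 43.9, 73.2 and 94.03 CPM at day 16 and 16.9, 5.29 and 5.29 CPM at day 19. Replicate 1 was the highest of the day 19 libraries, and the gene fell by 2.94 in log2 units (SE 0.52; edgeR adjusted p = 0.0449; log2 fold change -3.72 without day 19 replicate 1). SLC7A9, which carries cystine and basic amino acids into cells, stood at 173, 112 and 265 CPM at day 16 and 40.2, 30.6 and 11.1 CPM at day 19 and fell by 2.75. SLC1A1, a glutamate transporter of epithelia and neurons, stood at 103, 86.9 and 90.7 CPM at day 16 and 39.6, 23.7 and 17.1 CPM at day 19 and fell by 1.80 (SE 0.28). FUT1, a fucosyltransferase that makes the H antigen, stood at 24.4, 64.5 and 55.1 CPM at day 16 and 1.85, 6.19 and 11.7 CPM at day 19. FUT1 fell by 2.87, with replicate 3 nearest to day 16 (log2 fold change -3.56 without day 19 replicate 3). The tight junction gene OCLN, occludin, stood at 75.1, 63.7 and 63.6 CPM at day 16 and 33.03, 36.05 and 22.3 CPM at day 19 and fell by 1.15. The row named CGN, which the table describes as conglutinin and which shares its symbol with the junction protein cingulin, fell by 0.98. RELN, the secreted matrix glycoprotein reelin, fell by 2.49 from 27.6, 13.7 and 14.7 CPM to 4.27, 3.195 and 2.43 CPM. CD300LG, a receptor known from endothelium, stood at 62.4, 36.3 and 42.8 CPM at day 16 and 5.54, 10.7 and 6.66 CPM at day 19 and fell by 2.63 (SE 0.32; edgeR adjusted p = 0.0215). The row ABCA2, described as like this lipid transporter, fell by 2.30 (log2 fold change -2.92 without day 19 replicate 1).

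GREB1, KLF5, RORB, LGR5 and FLT1 also fell. GREB1, a gene known as a target of the oestrogen receptor, stood at 52.8, 54.4 and 57.1 CPM at day 16 and 9.23, 12.9 and 15.9 CPM at day 19. The groups were tight and far apart, and GREB1 fell by 2.11 on the log2 scale (SE 0.22; edgeR adjusted p = 0.0154). The oestrogen receptor gene ESR1 itself stood at 283, 403 and 268 CPM at day 16 and 228, 111 and 163 CPM at day 19, again without overlap, and did not pass (edgeR adjusted p = 0.107; 0.00226 without day 19 replicate 1). KLF5, a zinc finger factor of epithelia, stood at 136, 137 and 126 CPM at day 16 and 60.7, 52.1 and 44.1 CPM at day 19 and fell by 1.35 (SE 0.17; edgeR adjusted p = 0.0215). RORB, a nuclear receptor, stood at 116, 139 and 237 CPM at day 16 and 48.1, 25.7 and 29.4 CPM at day 19 and fell by 2.25. LGR5, the R-spondin receptor that marks epithelial stem cells, stood at 41.6, 33.7 and 34.3 CPM at day 16 and 5.05, 4.99 and 13.01 CPM at day 19. LGR5 fell by 2.25 (log2 fold change -2.85 without day 19 replicate 3). FLT1, a receptor of vascular endothelial growth factor, stood at 36.02, 29.8 and 40.8 CPM at day 16 and 18.8, 13.1 and 10.3 CPM at day 19 and fell by 1.34. BCAT1, the cytosolic transaminase of branched-chain amino acids, was nearly constant at day 16, at 56.3, 56.6 and 55.4 CPM, and stood at 7.29, 16.5 and 4.97 CPM at day 19. BCAT1 fell by 2.55 (log2 fold change -3.19 without day 19 replicate 2). ALDH1L2, a mitochondrial folate enzyme, fell by 1.24, and the metalloprotease ADAM12 fell by 1.35. The largest decreases by the naming rule were those of IZUMO1, known for sperm-egg fusion, OVCH1, a serine protease homologue, and the kinesin KIF1A. IZUMO1 stood at 17.7, 5.24 and 8.02 CPM at day 16 and 1.26, 0.499 and 1.16 CPM at day 19 and fell by 3.39 (log2 fold change -2.755 without day 16 replicate 1), on 303 counts over the day 16 libraries and 29 over the day 19 libraries. OVCH1 fell by 3.24, KIF1A fell by 3.02, the armadillo repeat gene ARMCX4 fell by 2.28 and the transmembrane protein gene PRRG3 fell by 1.93. CDH17, a cadherin of the intestine, had day 19 libraries at 1.94, 4.19 and 0.7405 CPM under day 16 libraries at 38.6, 13.8 and 11.6 CPM, and did not pass (edgeR adjusted p = 0.106).

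In the activin and bone morphogenetic protein pathway, ligands bind paired receptors that activate SMAD proteins, while follistatin and gremlin bind ligands outside the cell. Of 36 tested members 1 rose (INHBA) and 2 fell, 4 had all day 19 libraries above day 16 and 8 had all below, and the median log2 fold change was -0.36. Such counts, here and for the lists that follow, stand against 12.2% above and 12.3% below among all mRNA genes tested and a median of 0.007, and no test set a list apart from other genes. Unadjusted counts stand against 13.9% higher and 11.4% lower among all mRNA genes tested. DESeq2 and voom counts of a list cover both directions. They stand against 6.23% higher and 5.16% lower in DESeq2, and 22.1% and 24.6% in voom. The type I receptor BMPR1B stood at 59.8, 65.2 and 55.8 CPM at day 16 and 31.5, 20.6 and 15.97 CPM at day 19 and fell by 1.41. SMAD9, which transmits signals of such receptors, stood at 29.4, 22.2 and 41.6 CPM at day 16 and 10.7, 6.89 and 8.67 CPM at day 19 and fell by 1.83. FST, follistatin, stood at 149.9, 48.1 and 56.1 CPM at day 16 and 26.3, 17.3 and 11.3 CPM at day 19. Its groups did not overlap but it did not pass (edgeR adjusted p = 0.0662; 0.0126 without day 19 replicate 1). GREM1, named here after its values were seen, stood at 59.1, 30.4 and 33.9 CPM at day 16 and 16.998, 11.4 and 6.03 CPM at day 19 (edgeR adjusted p = 0.146). In 5 other members replicates 2 and 3 lay below day 16 and replicate 1 above. Among them BMPR2, also named after its values were seen, stood at 27.8, 39.6 and 28.2 CPM at day 16 and 42.6, 1.198 and 4.13 CPM at day 19.

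Of 41 Wnt genes 1 rose (WNT11) and 1 fell (LGR5), while 5 lay above day 16 in all libraries, a share like the 12.2% of all mRNA genes, and 10 lay below (12.3% of all), with a median of -0.19. DKK1, a secreted Wnt inhibitor, stood at 309, 199 and 64.5 CPM at day 16 and 981, 419 and 427 CPM at day 19, and the ligand WNT5A and the receptor FZD5, with day 19 values of 13.2, 1.897 and 2.12 CPM and 7.09, 1.098 and 1.27 CPM, lay under day 16 values of 18.1, 21.4 and 18.8 CPM and 15.3, 15.1 and 11.4 CPM. These 3 genes, named after their values were seen, did not pass (edgeR adjusted p = 0.137, 0.143 and 0.0935; 0.162, 3.34e-05 and 3.52e-05 without day 19 replicate 1). Of 33 implantation regulators 1 rose (HOXA11) and 1 fell (KLF5), with 4 above and 6 below day 16 in all libraries. Of 32 angiogenesis and hypoxia genes 1 fell (FLT1), with 2 above and 8 below. Of 22 steroid and oxytocin receptor genes edgeR called 0 (2 higher and 5 lower at an unadjusted p under 0.05, against 13.9% and 11.4% of all mRNA genes tested; DESeq2 4, voom 15). HSD11B1, which regenerates active glucocorticoid, stood at 103, 88.4 and 28.04 CPM at day 16 and 9.42, 14.6 and 7.09 CPM at day 19 and did not pass (edgeR adjusted p = 0.0612).

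Of 45 interferon-stimulated and conceptus signal genes tested, 14 had all day 19 libraries above all day 16 libraries and 0 had all below, against 12.2% and 12.3% of all mRNA genes. ISG15, a ubiquitin-like modifier, stood at 892, 1522 and 478 CPM at day 16 and 1989, 2644 and 2289 CPM at day 19. MX1, an antiviral GTPase, stood at 1259, 2169.6 and 884 CPM at day 16 and 3323, 2734 and 2415 CPM at day 19. IFI6, an interferon-induced mitochondrial protein, stood at 1959, 2185 and 1264 CPM at day 16 and 5278, 7861 and 5912 CPM at day 19. In these 3 genes the groups did not overlap, but none passed (edgeR adjusted p = 0.126, 0.156 and 0.0713). The chemokine CXCL11 and the membrane tether BST2, named after their values were seen, stood at 2.95, 3.42 and 1.17 CPM and 73.9, 164 and 50.9 CPM at day 16 and at 13.1, 14.2 and 6.14 CPM and 377, 252 and 227 CPM at day 19 (edgeR adjusted p = 0.0565 and 0.0759). In edgeR 0 of the 45 were called (14 higher at an unadjusted p under 0.05). DESeq2 called 8 and voom 20, counted over both directions. Of all mRNA genes, DESeq2 called 6.23% higher and 5.16% lower, and voom 22.1% and 24.6%. The list's median change differed by library: the log2 difference from day 16 was 1.06 in replicate 1, 0.18 in replicate 2 and -0.01 in replicate 3, against 0.009, -0.025 and -0.023 over all mRNA genes tested. The median log2 fold change was 0.37, and -0.05 without replicate 1, when 8 members were called higher and 8 lower (21.8% and 24.4% of all mRNA genes in that fit). SAMD9, an antiviral factor, and DTX3L, a ubiquitin ligase, named after their values were seen, were 2 of the 4 members with replicate 1 above day 16 and replicates 2 and 3 below. SAMD9 stood at 149, 265 and 86.7 CPM at day 16 and 290.04, 41.7 and 35.5 CPM at day 19, and DTX3L at 114, 198 and 81.05 CPM at day 16 and 273, 41.3 and 37.9 CPM at day 19.

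Class I antigen processing, which loads peptides on major histocompatibility molecules, had 7 of 16 members above day 16 in all libraries and 0 below, with a median of 0.47 and per-library medians of 0.51, 0.55 and 0.45. PSME2 and PSME1, the proteasome activator subunits, named after their values were seen, stood at 136, 158 and 114 CPM at day 16 and 208, 389 and 373 CPM at day 19 and at 259.7, 319.7 and 194 CPM at day 16 and 402, 539.99 and 591 CPM at day 19. Calreticulin, CALR, a chaperone of peptide loading, stood at 800.04, 535 and 602 CPM at day 16 and 827, 998 and 997 CPM at day 19. In edgeR 0 were called (7 higher at an unadjusted p under 0.05), and PSME2 came to an edgeR adjusted p of 0.05005. DESeq2 called 4 and voom 12, in either direction. Without day 19 replicate 1, edgeR called 6 members higher and 3 lower (21.8% and 24.4% of all mRNA genes). In 2 members replicates 2 and 3 lay below day 16 and replicate 1 above. Of 20 complement genes 5 lay above and 2 below day 16 in all libraries, and edgeR called 0 (6 higher and 1 lower unadjusted; DESeq2 5, voom 8). The central component C3 stood at 3021, 3055 and 1614 CPM at day 16 and 1479, 404 and 344 CPM at day 19, and the inhibitor SERPING1, named after its values were seen, at 586, 882 and 264 CPM at day 16 and 2106, 1271 and 1254 CPM at day 19. Of 34 cytokine and NF-kB genes edgeR called 0 (7 higher and 4 lower unadjusted; DESeq2 8, voom 13). TNFRSF1A, a receptor of tumour necrosis factor, stood at 176, 215 and 137 CPM at day 16 and 260.03, 249 and 221 CPM at day 19.

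Several secretory products of the uterus varied widely between day 19 libraries. SPP1, osteopontin, a ligand of integrins, stood at 14.7, 16.6 and 14.7 CPM at day 16 and 198, 55.6 and 49.4 CPM at day 19. All day 19 libraries were higher, with replicate 1 far above the others, and SPP1 did not pass (edgeR adjusted p = 0.0771). The uterine serpin SERPINA14, a major milk protein of the ruminant uterus, stood at 447, 629.5 and 271 CPM at day 16 and 3921, 1189.6 and 755 CPM at day 19, and GRP, gastrin-releasing peptide, at 807, 2177 and 1781 CPM at day 16 and 4967, 4198 and 2696 CPM at day 19. The lectin gene CLEC4F stood at 196, 245 and 152 CPM at day 16 and 500.3, 463 and 360.1 CPM at day 19. None of these 3 passed, with edgeR adjusted p-values of 0.134, 0.136 and 0.108. The galectins LGALS15 and LGALS16, whose reads the counting could have split, were highest in day 19 replicate 2. LGALS15 stood at 1289.95, 1261 and 996 CPM at day 16 and 831, 3856 and 1397 CPM at day 19, and LGALS16 at 806, 571 and 497 CPM at day 16 and 348, 1122 and 363 CPM at day 19, so day 16 and day 19 overlapped in both, and leaving out day 19 replicate 2 turned the direction of LGALS15 (log2 fold change 0.78, and -0.08 without it). IGFBP1, which binds insulin-like growth factors, stood at 183, 38.3 and 126 CPM at day 16 and 15.6, 34.05 and 6.45 CPM at day 19, and the decoy receptor gene IL1R2 at 511, 201 and 158 CPM at day 16 and 35.8, 111 and 25.6 CPM at day 19. Both lay lower in all day 19 libraries and did not pass (edgeR adjusted p = 0.0753 and 0.092). STC1, the hormone stanniocalcin, stood at 16.3, 11.2 and 8.83 CPM at day 16 and 174, 22.97 and 7.51 CPM at day 19, far higher in replicate 1 than in any other library. Of 34 secreted and histotroph genes 2 rose and 1 fell, 7 lay above and 5 below in all libraries, and the median was 0.16. Of 15 cathepsins and cystatins 1 rose, 3 lay above and 0 below. Of 24 metalloproteases and inhibitors 1 rose (TIMP1) and 1 fell (ADAM12), with 1 above and 7 below.

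**Figure D4:**
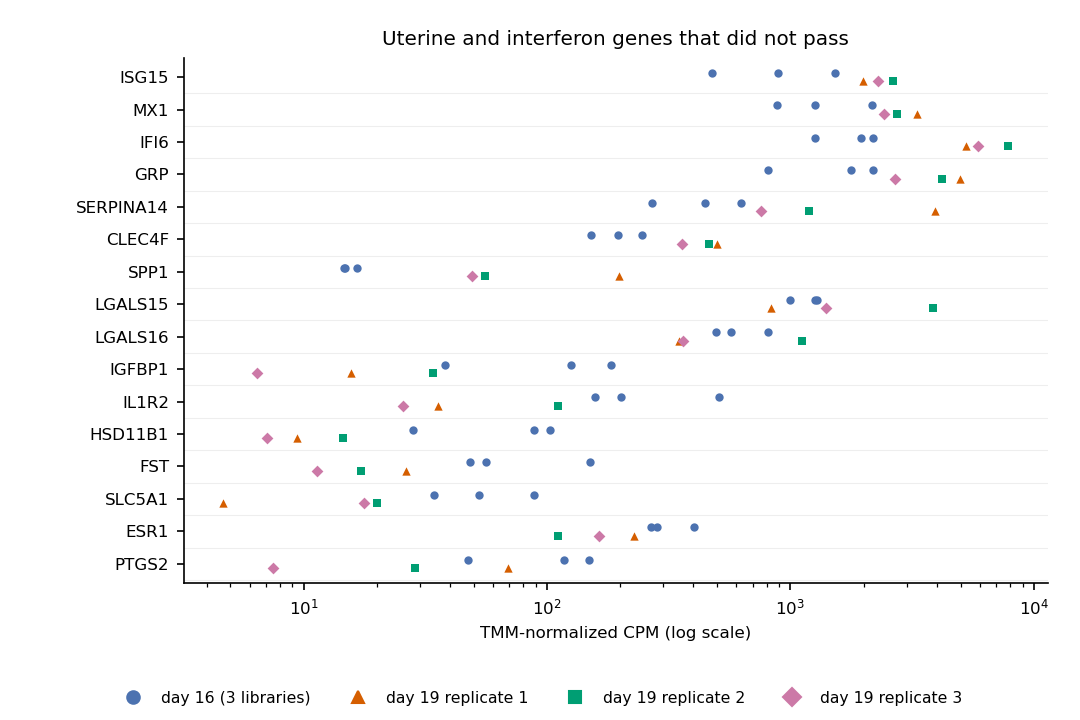
TMM-normalized CPM on a log axis for 16 uterine, interferon-stimulated and receptor genes that did not pass the edgeR test, with day 16 libraries as circles and day 19 replicates 1, 2 and 3 as triangles, squares and diamonds. The groups do not overlap for ISG15, MX1, IFI6, GRP, SERPINA14, CLEC4F, SPP1, IGFBP1, IL1R2, HSD11B1, FST, SLC5A1 and ESR1, and they overlap for LGALS15, LGALS16 and PTGS2.

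Among transport and barrier genes, 5 were called in the 3 transport lists, the junction list and the integrin list, the row CGN included. All 5 fell. Counts of list members below day 16 stand against 12.3% of all mRNA genes and those above against 12.2%. Of 28 amino acid transporters 2 fell (SLC7A9 and SLC1A1), 7 lay below in all libraries and 2 above, with a median of -0.36. Of 31 ion and water transport genes 10 lay below and 3 above, and edgeR called 0 (5 higher and 8 lower unadjusted; DESeq2 8, voom 14). Of 13 sugar transporters 1 lay below and 0 above, and edgeR called 0 (2 lower unadjusted; DESeq2 1, voom 5). That 1 gene was SLC5A1, the sodium-glucose cotransporter, at 88.3, 34.5 and 52.7 CPM at day 16 and 4.66, 19.97 and 17.8 CPM at day 19 (edgeR adjusted p = 0.0774). The facilitated transporter SLC2A1 stood at 455, 489.8 and 286 CPM at day 16 and 282, 305 and 170.00 CPM at day 19. Of 34 junction genes, listed by symbol, 2 fell (OCLN and the row CGN, which is described as conglutinin), 9 lay below and 3 above. Of 31 integrin and apical adhesion genes 1 fell (ITGB3), 7 lay below and 4 above.

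Of 22 cholesterol synthesis genes 9 lay above day 16 in all libraries and 0 below, with per-library medians of 0.52, 0.30 and 0.38; HMGCS1 passed. In 10 of the 22, replicates 2 and 3 left the day 16 range together without replicate 1 (42.0% of all mRNA genes tested). In 4 of those 10, replicates 2 and 3 lay below day 16 and replicate 1 above, and in 2 the reverse held. FDPS, MVD and MVK, enzymes of the mevalonate route named after their values were seen, stood at 51.8, 52.9 and 43.4 CPM at day 16 and 73.6, 122 and 149 CPM at day 19, at 24.6, 21.3 and 21.4 CPM at day 16 and 25.1, 59.2 and 68.3 CPM at day 19 and at 18.7, 16.3 and 17.1 CPM at day 16 and 25.9, 41.3 and 39.4 CPM at day 19. Their edgeR adjusted p-values were 0.0576, 0.0958 and 0.0576. Cell cycle genes had 19 of 52 above and 1 below, with a median of 0.49 and per-library medians of 0.47, 0.47 and 0.32, and edgeR called 0 (17 higher and 1 lower unadjusted). DESeq2 called 7 and voom 10, in either direction. The voom share lay under that of all mRNA genes (22.1% higher and 24.6% lower). The most abundant of them, the cyclin CCND3, stood at 199.99, 278 and 185 CPM at day 16 and 299.9, 290.1 and 322 CPM at day 19. Of 22 glycolytic enzymes 1 rose (ENO2), 4 lay above and 1 below. Of 32 endoplasmic reticulum genes 1 rose (DDIT3), 9 lay above and 1 below. Of 44 collagen and matrix genes 1 rose (COL18A1), 4 lay above and 7 below. Of 19 serine and one-carbon enzymes 1 fell (ALDH1L2), 2 lay above and 3 below. Of 20 polyamine and arginine genes edgeR called 0 (1 higher unadjusted; DESeq2 0, voom 9), with 2 above and 1 below. Of 23 prostaglandin genes edgeR called 0 (4 higher and 6 lower unadjusted; DESeq2 3, voom 12), with 4 above and 4 below. PTGS2, the inducible cyclooxygenase, stood at 149, 47.3 and 118 CPM at day 16 and 69.2, 28.7 and 7.51 CPM at day 19, and PTGIS, the prostacyclin synthase, at 207, 189.6 and 177 CPM at day 16 and 363, 195 and 264 CPM at day 19.

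Lists of the translation, respiration and protein turnover machinery were among those whose medians differed between day 19 replicate 1 and the other day 19 libraries. Of 74 cytosolic ribosomal protein genes, many of which have near-identical copies, 68 had replicates 2 and 3 above day 16 and replicate 1 below. The per-library medians were -0.61, 0.93 and 0.72, and edgeR called 0 (9 higher unadjusted; DESeq2 1, voom 63). RPLP0, a protein of the ribosomal stalk, stood at 2625, 2457 and 2189.96 CPM at day 16 and 1865, 3968 and 3665 CPM at day 19, and RPSA at 2666, 2412 and 2389 CPM at day 16 and 1797, 4263 and 3976 CPM at day 19. Mitochondrial ribosomal proteins had medians of -0.01, 0.90 and 0.92, with 17 of 71 above in all libraries, 0 below, and 1 called (MRPL1, 4.32, 4.1005 and 3.16 CPM at day 16 and 10.005, 12.6 and 10.3 CPM at day 19). Nuclear subunits of oxidative phosphorylation had medians of -0.09, 1.12 and 0.97, with 10 of 57 above, 0 below, and NDUFB9 and NDUFA5 called. NDUFB9, a subunit of complex I, stood at 55.4, 50.003 and 51.9 CPM at day 16 and 79.9, 199 and 188 CPM at day 19. Proteasome subunits differed less: medians were 0.22, 0.89 and 0.83, 14 of 32 lay above, 0 below, and PSMD7 and PSMA5 were called. The row PSMD7, described as like this lid subunit, stood at 88.04, 76.1 and 72.1 CPM at day 16 and 129, 267 and 271 CPM at day 19, and PSMA5, a core subunit, rose 2.08-fold. Without replicate 1, 66 ribosomal, 62 mitochondrial ribosomal, 54 oxidative phosphorylation and 28 proteasome genes were called higher and 0 lower (21.8% of all mRNA genes were called higher in that fit).

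The very long transcripts went the other way, with medians of -0.08, -1.56 and -1.52, 14 of 39 below day 16 in all libraries, 0 above and 1 called (ANK2). ANK2, a membrane-cytoskeleton adaptor, stood at 112, 121 and 58.1 CPM at day 16 and 39.8, 26.3 and 28.7 CPM at day 19 and fell by 1.62. Among abundant genes in which replicates 2 and 3 left the day 16 range furthest while replicate 1 did not, several were lower in replicates 2 and 3. KMT2A, a histone methyltransferase, stood at 102, 129.96 and 140.3 CPM at day 16 and 116, 6.29 and 10.7 CPM at day 19, CREBBP, a histone acetyltransferase, at 134, 155 and 138 CPM at day 16 and 149.97, 17.6 and 19.5 CPM at day 19, and the receptor NOTCH3 at 72.1, 86.2 and 70.8 CPM at day 16 and 85.6, 7.29 and 10.6 CPM at day 19. DDX3X, an RNA helicase, stood at 427, 562 and 492 CPM at day 16 and 539.97, 61.1 and 51.7 CPM at day 19. In the other direction MYL6, a myosin light chain, stood at 829, 665 and 681 CPM at day 16 and 809, 2619 and 2783 CPM at day 19, NUPR1, a small stress-induced nuclear protein, at 563, 635 and 459.8 CPM at day 16 and 537, 2293 and 2105 CPM at day 19 and ATP5I, a subunit of ATP synthase, at 36.2, 34.4 and 32.9 CPM at day 16 and 29.6, 145 and 124 CPM at day 19. In each of these 7 genes replicate 1 lay within or next to the day 16 values, and none passed (edgeR adjusted p from 0.097 to 0.347). Immediate early and stress genes, a class that tissue handling can induce, had medians of 0.36, -0.70 and -0.75, and edgeR called 0 of 31 (5 higher and 6 lower unadjusted; DESeq2 6, voom 15). FOSL2, a subunit of the AP-1 factor, stood at 749.7, 1023 and 744 CPM at day 16 and 924, 328 and 384 CPM at day 19. The part of transcript length, RNA handling or library preparation in the changes described was not tested.

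**Figure D5:**
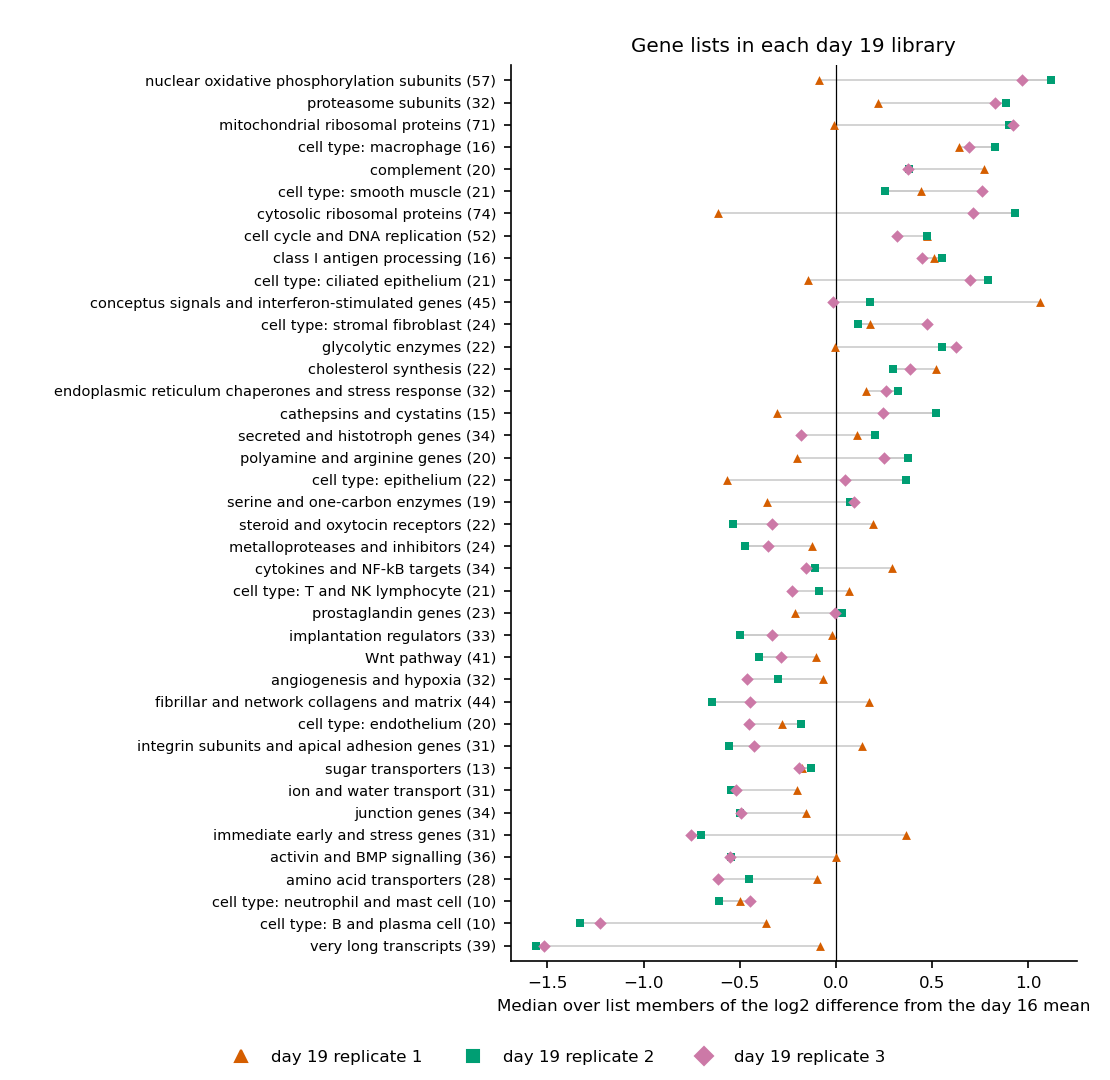
Median over the tested members of each list (number in brackets) of the log2 difference from the day 16 mean, on log2 CPM with a prior count of 2, for day 19 replicates 1 (triangle), 2 (square) and 3 (diamond); lists with at least 10 tested members are ordered by their median log2 fold change. The medians of the 3 libraries lie together for macrophage, cell cycle, class I antigen processing and cholesterol lists, whose single members can still differ between libraries. They lie apart for ribosomal, oxidative phosphorylation, immediate early and very long transcript lists.

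Among cell type markers, macrophage genes had 8 of 16 above day 16 in all libraries and 1 below, and their sum was 871 to 1217 CPM at day 16 and 1493 to 2156 CPM at day 19. The microglial and macrophage gene AIF1, named after its values were seen, stood at 29.7, 39.6 and 20.1 CPM at day 16 and 53.5, 112 and 79.02 CPM at day 19, C1QA, a complement subunit made by macrophages, at 108, 184 and 113 CPM at day 16 and 202, 402 and 328 CPM at day 19, and LAPTM5, a lysosomal protein of leukocytes, at 169, 174 and 164 CPM at day 16 and 226, 279.6 and 244 CPM at day 19. In edgeR 0 of the 16 were called (8 higher and 1 lower unadjusted; DESeq2 4, voom 10). Endothelial markers summed to 1687 to 2070 CPM at day 16 and 1269 to 1436 CPM at day 19, with 7 of 20 below day 16 and 0 above, and FLT1 was called lower. At an unadjusted p under 0.05 edgeR had 1 member higher and 6 lower, while DESeq2 called 3 and voom 11. Without day 19 replicate 1, 3 were called higher and 7 lower, against 21.8% and 24.4% of all mRNA genes. VWF, the von Willebrand factor, and the angiopoietin receptor TEK, named after their values were seen, stood at 805, 588 and 582 CPM at day 16 and 348, 381 and 416 CPM at day 19 and at 70.8, 54.1 and 73.02 CPM at day 16 and 47.7, 27.96 and 23.8 CPM at day 19. Both were picked from members that fell, and members that were higher are not named. VWF made up a large part of the endothelial sum, so the change of that sum leans on VWF. Smooth muscle markers had 9 of 21 above and 0 below, and their sum was highest in day 19 replicate 3, at 69118 CPM; edgeR called 0 (4 higher unadjusted; DESeq2 2, voom 6). The smooth muscle actin ACTA2 stood at 5299, 5066 and 4858 CPM at day 16 and 5705, 6869 and 11308 CPM at day 19. Stromal fibroblast markers had 5 of 24 above and 1 below, with HOXA11 called.

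The epithelium list summed to 2623 to 2774 CPM at day 16, and to 1847, 3380 and 2661 CPM in the day 19 libraries, and edgeR called 0 of 22 (2 higher and 4 lower unadjusted; DESeq2 4, voom 11). EPCAM, an adhesion protein of epithelia, stood at 323, 283 and 383 CPM at day 16 and 210.3, 423 and 327 CPM at day 19. Of 5 tested gland genes LGR5 fell and the other 4, named after their values were seen, did not pass. PAX8, a gland transcription factor, stood at 116, 89.2 and 102 CPM at day 16 and 62.3, 74.99 and 63.05 CPM at day 19, and PIGR, which carries immunoglobulins across epithelia, at 42.4, 145 and 69.4 CPM at day 16 and 27.6, 78.4 and 33.1 CPM at day 19. WFDC2, a secreted protein of epithelia, was higher than at day 16 in replicates 2 and 3, at 21.9, 17.997 and 10.998 CPM at day 16 and 18.1, 66.5 and 64.5 CPM at day 19, and the scarce HSD17B2, which inactivates oestradiol, in all 3 day 19 libraries, at 0, 0.228 and 0.1803 CPM at day 16 and 1.17, 2.496 and 0.7405 CPM at day 19. Ciliated cell markers had 2 of 21 above and 1 below, and edgeR called 0 (1 higher and 1 lower unadjusted; DESeq2 1, voom 2). The B and plasma cell list had 1 of 10 above and 4 below, and edgeR called 0 (5 lower unadjusted; DESeq2 3, voom 2). JCHAIN, which joins immunoglobulin chains, stood at 210.3, 32.2 and 24.1 CPM at day 16 and 14.6, 16.5 and 6.66 CPM at day 19, and MZB1, a chaperone of plasma cells, at 52.4, 7.29 and 7.57 CPM at day 16 and 1.36, 4.69 and 2.12 CPM at day 19. Both, named after their values were seen, were highest in day 16 replicate 1. PRDM1, a factor of plasma cell formation, was highest in day 16 replicate 3, at 67.8, 58.8 and 85.01 CPM at day 16 and 61.5, 23.1 and 19.3 CPM at day 19. The row named XBP1, which the table describes only as an uncharacterized locus, was the member above day 16 in all libraries, at 374, 359 and 377 CPM at day 16 and 398, 490.4 and 527 CPM at day 19. T and NK cell markers had 1 of 21 above and 1 below, with 0 called (1 higher unadjusted; DESeq2 0, voom 3), and neutrophil and mast cell markers 0 of 10 above and 1 below, with 0 called (1 lower unadjusted; DESeq2 0, voom 2). Of 34 trophoblast and conceptus genes listed, 12 were among the mRNA rows under these names and 7 were tested, with 0 called (1 higher unadjusted; DESeq2 0, voom 2). The row PAG1 was listed, by its symbol alone, as a pregnancy-associated glycoprotein, of a large family with shared reads. Whether the row is that gene was not tested. It stood at 4.74, 3.99 and 3.52 CPM at day 16 and 4.66, 0.399 and 0.529 CPM at day 19. The part of changed cell content in the results above was not tested.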

How the data were processed

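Poly(A) RNA of uterine samples was fragmented with RNase III and made into libraries with an Ion Torrent kit, per the labels' protocols, and sequenced on an Ion Proton, per the series design text. The authors deposited unnormalized whole-number read counts per gene; how reads were aligned and counted, on which build and with which strand setting, is not stated in these sources, so related, overlapping or antisense genes may share reads. For 464 rows a symbol (KIF1A and CREBBP among those named) came from RefSeq's gene table (ARS1.2), and no coordinates or sequences were used.

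All 16098 genes that passed filterByExpr were fitted with edgeR 4.0.16 in R 4.3.3 (TMM scaling, robust quasi-likelihood, time point as the only term, all 9 libraries; common biological coefficient of variation 0.318), with Benjamini-Hochberg adjustment over all of them; 14530 were mRNA and 5692 mRNA rows were not tested. The SE of a log2 fold change is its size over the square root of F. DESeq2 1.42.0, limma 3.58.1 voom, RLE scaling, other filters, a replicate block and leaving out each library were alternatives. No pair of libraries of a day agreed within sampling noise (chi-square per degree of freedom of 9.86 or more). The fit was checked on simulated data. These had a smaller spread and no library that departed like day 19 replicate 1, so the check does not cover such a library. Members, the 45 lists and tests were chosen with earlier results of these data known. Named genes are the largest called changes (12 per direction, average log2 CPM of at least 3, true symbol, no overlap), the widest separations (8 per direction, at least 10 CPM), genes where replicate 1 alone stayed out (6 per direction, at least 50 CPM), called or abundant list members, and a panel of 30 uterine genes; those of them that add nothing are not printed, and others are said to have been named after their values were seen.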

Additional observations from a re-analysis of the deposited data

How the results depend on the processing

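The calls rest on a small margin. The 79 higher and 105 lower mRNA genes became 905 and 750 in DESeq2, 3213 and 3573 in limma voom with sample quality weights, and 0 and 0 both with only the libraries of days 16 and 19 and with the replicate block. The voom weight of day 19 replicate 1 was 0.091, the lowest of the 9 libraries. With single libraries left out the counts ranged from 0 to 3221 higher and from 0 to 3607 lower, the highest values being those without day 19 replicate 1. RLE scaling (78 and 104), no low-count filter (68 and 105) and a stricter filter (92 and 125) kept the counts within 1.5 times. All of the 184 called genes that were tested kept their direction under each alternative. As the days did not overlap in any of the 184, leaving out a library or rescaling could hardly turn a direction. The kept direction is therefore no measure of how firm the calls are. With the replicate block 3344 genes had an unadjusted edgeR p under 0.05, and the 184 had edgeR adjusted p-values up to 0.113. The deviations of same-numbered day 16 and day 19 libraries correlated at -0.066, -0.108 and 0.153. Those of differently numbered libraries of these days correlated at -0.134 to 0.15. No pairing by number was seen, but 3 libraries a day cannot exclude it. The counts of genes with no overlap, 1778 above and 1789 below, ranged from 2125 to 4764 and from 2112 to 5007 with single libraries left out, again highest without day 19 replicate 1, where fewer libraries must agree.

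Of 116 genes followed by name, 111 kept their direction throughout. LGALS15 turned to -0.076 without day 19 replicate 2 and ranged up to 1.166 with other libraries left out. LGALS16 turned to 0.193, 0.264 and 0.249 without day 16 replicate 1 and day 19 replicates 1 and 3, and ranged down to -0.805. EPCAM turned to 0.176 in voom, and to 0.059 and 0.199 without day 16 replicate 3 and day 19 replicate 1, and ranged down to -0.288. SAMD9 turned to 0.057 without day 16 replicate 2, and DTX3L to 0.266, 0.25 and 0.266 without day 16 replicate 2 and day 19 replicates 2 and 3; their lowest values, -2.096 and -1.709, were those without day 19 replicate 1. For these changes the cause was not tested. Genes of few counts, such as IZUMO1 with 29 at day 19, are limited by depth.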
